A study of Mus musculus with 16 samples.

Results

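A set of 8 genes that mark fetal and regenerating intestinal epithelium was followed through mouse intestinal tumour cells: Ly6a, Ly6d, Anxa1, Anxa3, Clu, Il1rn, Il33 and Msln. They were chosen by name, as Ly6a and 7 genes that are read with it as signs of this state. The rule itself uses no measured value. However, these genes and the further gene lists below were chosen with earlier results of these data known, so counts of them are descriptions only. All 8 were found among the 36528 genes measured, and all 8 passed the filter on low counts. RNA was sequenced from cells that had been sorted by GFP out of tumours of 2 genotypes, labelled AKVPSL and AKVPL. The 4 groups were AKVPSL GFP+, AKVPSL GFP-, AKVPL GFP+ and AKVPL GFP- cells, with 4 libraries each and 16 in all. The series' design text calls the sorted cells positive or negative for Lgr5, the receptor that marks intestinal crypt stem cells, so GFP is read here as the sign of Lgr5. The labels do not spell out the genotype letters; the AKVPSL name has 1 letter more, S, and whatever the shared letters stand for is present in all 4 groups. Which cells carried the alleles, how many animals or tumours were used, and whether replicates came from separate ones are not given in the labels, so p-values hold for the spread among libraries, part of which may be technical.

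The adult intestinal epithelium is renewed from crypt stem cells that depend on Wnt signalling. After injury, and in the fetus, epithelial cells instead switch on a set of surface and secreted proteins, for which Ly6a, known as Sca-1, is the usual marker. Ly6a and Ly6d are small surface proteins of the LY6 family, held in the membrane by a lipid anchor. Anxa1 and Anxa3 are annexins, which bind membranes when calcium rises, and Anxa1 also damps inflammation through formyl peptide receptors. Clu encodes clusterin, a secreted chaperone that marks revival stem cells in the injured mouse gut. Msln encodes mesothelin, a surface protein of mesothelial cells and of many carcinomas that binds the mucin Muc16. Il1rn encodes the antagonist that keeps interleukin 1 from its receptor, and Il33 an alarmin of the same family that is stored in the nucleus.

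Total counts per library ran from 10.88 to 41.6 M (M, 1e6), with a median of 25.93 M. Lgr5 fitted the sort: GFP+ cells exceeded GFP- cells by 1.99 ± 0.15 log2 units (SE) in AKVPSL and by 2.18 ± 0.16 in AKVPL. The letter S is read in other work as a change of Smad4, but the labels do not give its kind or size. Whole-gene counts of Smad4 were 0.70 ± 0.11 log2 units higher in AKVPSL than in AKVPL GFP+ cells. In GFP- cells they were 0.37 ± 0.11 higher. Such counts cannot show a small edit, and whether the change is one is not known, so they do not check the label. The titles say colon, whereas the tissue field of all but 1 library (AKVPSL GFP- replicate 1) says small intestine. The epithelial markers Epcam and Cdh1 were high in all 16 libraries, at 1216.7 to 2044.6 and 1064.6 to 1676.8 CPM (TMM-scaled counts per 1e6). The intestinal factor Cdx1 reached no more than 0.0411 CPM. Cdx2, another, differed by genotype, with means of 40.2 and 31.4 CPM in AKVPSL GFP+ and GFP- cells. In AKVPL GFP+ and GFP- cells its means were 1.48 and 2.05 CPM. Every AKVPSL library (26.7 CPM or more) lay above every AKVPL library (3.9 CPM or less) for Cdx2.

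Ly6a was the only one of the 8 genes whose 4 groups all stood apart (Gene ID 110454, chromosome 15, 74994877 to 74998031, GRCm38). It stood at 399.0, 465.1, 406.4 and 467.2 CPM in AKVPSL GFP+ libraries and at 1108.7, 1033.9, 1172.5 and 912.6 CPM in AKVPSL GFP- libraries. AKVPL libraries had 364.2, 313.0, 257.7 and 309.0 CPM in GFP+ cells and 242.0, 251.8, 206.3 and 188.3 CPM in GFP- cells. No 2 groups overlapped, and the order was AKVPSL GFP-, AKVPSL GFP+, AKVPL GFP+ and AKVPL GFP-, with a span of 4.76-fold between the highest and the lowest mean. Of the 1297 stretches of 50 bases in Ly6a transcripts, 246 (18.97%) also occur in transcripts of Ly6c1, Ly6i or I830127L07Rik, so its level is uncertain to the extent that reads from these were dropped or misplaced. The span of its neighbour gene Gm28068, a long noncoding RNA, overlaps that of Ly6a, and whether their exons overlap was not examined. Since the strand setting is not given, reads from any bases that the 2 share cannot be told apart.

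Ly6d (Gene ID 17068, chromosome 15, 74762056 to 74763567) was scarcer per length, with group means of 10.3 to 36.1 RPKM (the authors' size-factor-adjusted reads per kilobase and per 1e6 reads) against 215.9 to 962.0 RPKM for Ly6a. It had 6.51, 7.70, 9.29 and 7.72 CPM in AKVPSL GFP+ libraries and 21.8, 23.1, 22.5 and 20.2 CPM in AKVPSL GFP- libraries. In AKVPL it had 19.1, 21.4, 19.6 and 20.2 CPM in GFP+ cells and 19.1, 31.9, 20.1 and 31.2 CPM in GFP- cells. The AKVPSL GFP+ libraries stood apart below all others, and the other 3 groups overlapped. Ly6d also marks early B cells, and the 4 B cell markers summed to only 0.223 to 3.14 CPM per library.

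The annexins were highest in AKVPSL cells. Anxa1 (Gene ID 16952, chromosome 19, 20373434 to 20390671) had 1047.0, 1182.6, 892.9 and 934.0 CPM in AKVPSL GFP+ libraries and 1476.0, 1513.6, 1169.6 and 1287.4 CPM in AKVPSL GFP- libraries. In AKVPL it had 378.7, 481.7, 482.5 and 315.0 CPM in GFP+ cells and 502.7, 631.3, 572.2 and 420.8 CPM in GFP- cells. Every AKVPSL library lay above every AKVPL library, while the 2 sorts of each genotype overlapped. Anxa3 (Gene ID 11745, chromosome 5, 96793385 to 96845968) had 398.1, 407.1, 431.2 and 440.6 CPM in AKVPSL GFP+ libraries and 896.9, 890.3, 1066.3 and 863.1 CPM in AKVPSL GFP- libraries. AKVPL libraries had 247.6, 242.6, 224.3 and 221.1 CPM in GFP+ cells and 247.1, 271.7, 226.6 and 202.2 CPM in GFP- cells, which overlapped and lay below both AKVPSL groups.

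Clu was the most abundant member in every group, also per length, with a mean of 3046.4, 2209.1, 7615.3 and 3975.3 RPKM in AKVPSL GFP+, AKVPSL GFP-, AKVPL GFP+ and AKVPL GFP- cells. It is Gene ID 12759, at chromosome 14, 65968483 to 65981548. The AKVPSL libraries had 5190.8, 5510.5, 9360.5 and 8092.9 CPM in GFP+ cells and 4544.2, 3857.5, 6440.0 and 5521.8 CPM in GFP- cells. The AKVPL libraries had 18566.1, 17842.1, 17576.2 and 16347.4 CPM in GFP+ cells and 9437.9, 8902.1, 9335.7 and 6617.5 CPM in GFP- cells. AKVPL GFP+ cells stood apart at the top, and this single gene took 0.379% of all counts in its lowest library, AKVPSL GFP- replicate 2, and 1.87% in its highest, AKVPL GFP+ replicate 1.

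Msln (Gene ID 56047, chromosome 17, 25748613 to 25754378) had 118.4, 130.7, 257.8 and 270.2 CPM in AKVPSL GFP+ libraries and 506.8, 403.1, 681.2 and 665.1 CPM in AKVPSL GFP- libraries. In AKVPL it had 757.3, 732.6, 649.9 and 705.7 CPM in GFP+ cells and 519.4, 529.9, 489.9 and 472.8 CPM in GFP- cells. The AKVPSL GFP+ libraries lay below all others, and the AKVPSL GFP- libraries overlapped both AKVPL groups. Msln is a defining gene of mesothelial cells, and the other 7 mesothelial markers examined summed to 1.10 to 5.62 CPM per library.

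The 2 interleukin 1 family members were scarce per length, with group means of 4.93 to 73.8 RPKM for Il1rn and 9.72 to 17.4 RPKM for Il33. Il1rn (Gene ID 16181, chromosome 2, 24336860 to 24351491) had 8.52, 12.1, 19.0 and 21.5 CPM in AKVPSL GFP+ libraries and 39.1, 54.2, 111.1 and 78.1 CPM in AKVPSL GFP- libraries. AKVPL libraries had 41.8, 87.6, 96.4 and 41.0 CPM in GFP+ cells and 166.0, 273.4, 257.8 and 157.2 CPM in GFP- cells. AKVPSL GFP- and AKVPL GFP+ libraries overlapped between the other 2 groups, and the highest mean was 14-fold above the lowest, the widest span of the 8 members. Il33 (Gene ID 77125, chromosome 19, 29925113 to 29960718) had the narrowest span of the 8 (1.91-fold between means), with 53.2, 57.0, 54.6 and 47.8 CPM in AKVPSL GFP+ libraries and 50.8, 49.7, 34.6 and 46.8 CPM in AKVPSL GFP- libraries. Its AKVPL values were 31.6, 36.5, 44.4 and 31.1 CPM in GFP+ cells and 26.2, 26.7, 29.7 and 28.5 CPM in GFP- cells, and only the last group stood apart, at the bottom. The span of the long noncoding RNA gene Gm41832 overlaps that of Il33, and whether their exons overlap was not examined. Reads from any bases that the 2 share cannot be told apart without the strand.

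By the group with the highest mean, the members thus fell into 4 sets: Ly6a, Anxa1 and Anxa3 peaked in AKVPSL GFP- cells, Il33 in AKVPSL GFP+ cells, Clu and Msln in AKVPL GFP+ cells, and Ly6d and Il1rn in AKVPL GFP- cells. The plot of CPM by library shows all 128 values.

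**Figure D1:**
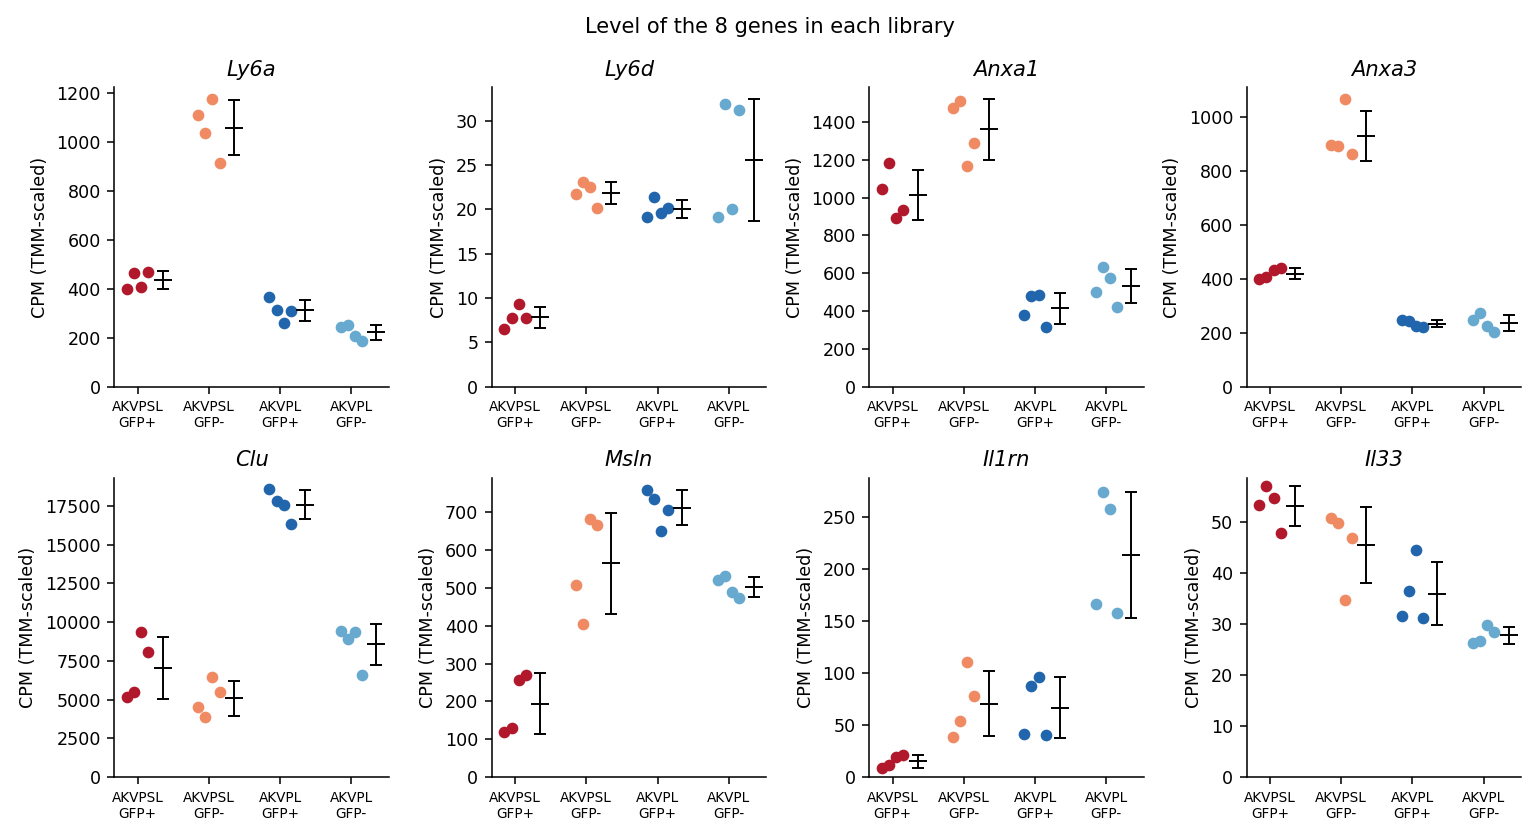
CPM (TMM-scaled counts per 1e6) of the 8 genes in each library, 1 panel per gene, with AKVPSL GFP+, AKVPSL GFP-, AKVPL GFP+ and AKVPL GFP- from left to right; points are libraries and the bar is the mean with its SD (n = 4). Ly6a and Anxa3 peak in AKVPSL GFP- (means 1056.9 and 929.2 CPM), Clu peaks in AKVPL GFP+ (17582.9 CPM), and Il1rn peaks in AKVPL GFP- (213.6 CPM).

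Upstream sequence was at hand for 3 members, Anxa1, Il1rn and Il33, from the RefSeq table of GRCm38.p6. The windows are shown because Anxa1 and Il33 were higher and Il1rn lower in AKVPSL than in AKVPL cells of both sorts, as given further on. Each is the 250 bases before an annotated start, 5′ to 3′ on the gene's strand, and the capitals mark a letter match to one of 4 motifs read on both strands: GGAATG for TEAD factors, TGANTCA for AP-1, GGGA and TTCC 2 bases apart for NF-kB and GTCTAGAC for SMAD factors. For Anxa1 the window is chr19:20390672-20390921 on the minus strand, for Il1rn chr2:24336610-24336859 on the plus strand, and for Il33 chr19:29924863-29925112 and chr19:29945540-29945789 on the plus strand.
Anxa1: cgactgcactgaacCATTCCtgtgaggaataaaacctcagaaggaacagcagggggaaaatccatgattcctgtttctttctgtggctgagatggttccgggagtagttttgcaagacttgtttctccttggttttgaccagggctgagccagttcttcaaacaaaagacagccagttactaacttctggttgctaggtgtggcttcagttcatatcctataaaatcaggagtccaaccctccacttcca
Il1rn, first start: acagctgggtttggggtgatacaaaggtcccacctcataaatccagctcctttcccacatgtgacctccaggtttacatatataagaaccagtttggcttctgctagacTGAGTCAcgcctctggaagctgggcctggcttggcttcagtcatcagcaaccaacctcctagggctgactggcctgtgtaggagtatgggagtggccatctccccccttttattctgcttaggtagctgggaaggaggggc
Il33, first start: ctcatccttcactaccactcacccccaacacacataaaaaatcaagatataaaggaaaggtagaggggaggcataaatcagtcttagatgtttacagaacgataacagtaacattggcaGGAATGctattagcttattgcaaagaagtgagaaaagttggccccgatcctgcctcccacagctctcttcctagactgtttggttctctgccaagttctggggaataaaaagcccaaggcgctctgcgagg
Il33, second start: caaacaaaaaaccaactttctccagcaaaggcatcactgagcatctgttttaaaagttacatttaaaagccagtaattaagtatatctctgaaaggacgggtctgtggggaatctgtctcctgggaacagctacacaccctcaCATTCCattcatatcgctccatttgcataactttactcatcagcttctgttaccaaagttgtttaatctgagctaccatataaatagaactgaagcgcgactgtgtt

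A TEAD letter match began 236 bases before the Anxa1 start and 131 and 107 bases before the 2 Il33 starts, and an AP-1 match began 141 bases before the first Il1rn start. Of the 2 other Il1rn starts, 1 had a TEAD match and 1 had none. TEAD matches occur in 12.64%, AP-1 matches in 6.75%, NF-kB matches in 1.21% and SMAD matches in 0.17% of all 32851 windows of this length, and the matches are descriptions of letters only.

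The sort was compared first within AKVPSL tumours, as GFP+ minus GFP- cells. Most of these genes were lower in the Lgr5-high, GFP+ cells. Of the 8 members, 6 fell, 1 rose and 1 did not pass the threshold, a Benjamini-Hochberg adjusted p under 0.05 over all 18072 genes tested by edgeR's quasi-likelihood F test. Of all genes tested, 24.6% fell and 22.4% rose in this comparison, 47.0% together. The members' median log2 fold change was -1.22, against -0.01 for all genes. In such bulk samples, fewer cells of a type and less RNA per cell cannot be told apart.

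Both LY6 members fell in AKVPSL GFP+ cells. Ly6a averaged 434.4 ± 36.8 CPM in GFP+ cells against 1056.9 ± 111.7 CPM in GFP- cells (SD, n = 4 each), a log2 fold change of -1.28 ± 0.12 (SE; edgeR adjusted p = 6.45e-07). Ly6d averaged 7.81 ± 1.14 CPM in GFP+ cells against 21.9 ± 1.29 CPM in GFP- cells, or -1.49 ± 0.16 (edgeR adjusted p = 2.36e-06). For each of them the 4 GFP+ libraries lay below the 4 GFP- libraries, as was so for 19.6% of all genes.

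Of the annexins, Anxa3 fell clearly and Anxa1 slightly. Anxa3 averaged 419.3 ± 19.9 CPM in GFP+ cells against 929.2 ± 92.6 CPM in GFP- cells (log2 -1.15 ± 0.10, edgeR adjusted p = 2.74e-07), without overlap. Anxa1 averaged 1014.1 ± 129.8 CPM in GFP+ cells against 1361.6 ± 161.8 CPM in GFP- cells (log2 -0.43 ± 0.15, edgeR adjusted p = 0.0252), and its libraries overlapped. Leaving out AKVPSL GFP+ replicate 3 or 4 or AKVPSL GFP- replicate 2 ended the Anxa1 call, with values of -0.39 to -0.37.

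Msln and Il1rn fell most on the log2 scale. Msln averaged 194.3 ± 80.8 CPM in GFP+ cells against 564.0 ± 133.1 CPM in GFP- cells (log2 -1.54 ± 0.24, edgeR adjusted p = 0.000103). Il1rn averaged 15.3 ± 6.0 CPM in GFP+ cells against 70.6 ± 31.4 CPM in GFP- cells (log2 -2.22 ± 0.41, edgeR adjusted p = 0.000716). Neither gene's groups overlapped, although replicates 3 and 4 were higher than replicates 1 and 2 in both sorts for each.

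Clu went the other way, with 7038.7 ± 2020.9 CPM in GFP+ cells against 5090.9 ± 1129.3 CPM in GFP- cells (log2 0.47 ± 0.19, edgeR adjusted p = 0.0469). Its libraries overlapped as groups, but in each same-numbered pair the GFP+ library was higher, by 0.19 to 0.55 log2 units. This call stood at the edge: it ended without the low-count filter (0.44), with the AKVPSL libraries alone in the fit (0.43), with limma on the deposited RPKM (0.44), and when AKVPSL GFP+ replicate 3 or 4 or AKVPSL GFP- replicate 1, 2 or 4 was left out (0.30 to 0.42). Il33 did not pass the threshold, at 53.1 ± 3.9 CPM in GFP+ cells against 45.5 ± 7.46 CPM in GFP- cells (log2 0.23 ± 0.13, edgeR adjusted p = 0.15).

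The same sort was then compared in AKVPL tumours, where the members did not fall together. Clu, Ly6a and Il33 rose in GFP+ cells, Il1rn fell and 4 did not pass the threshold, beside 22.6% of all genes rising and 16.5% falling, 39.1% together. The members' median was 0.18, against 0.14 for all genes. The balance of this comparison depends on the scaling: 57.8% of the genes past the threshold rose with TMM, 42.9% with DESeq2, 44.9% with library totals and 19.6% when libraries were scaled on 19 epithelial marker genes, here called epithelial scaling. The all-gene median of 0.14 became 0.04 with DESeq2 and -0.08 with epithelial scaling.

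Clu had the largest rise of the members in AKVPL, at 17582.9 ± 923.8 CPM in GFP+ cells against 8573.3 ± 1324.4 CPM in GFP- cells (SD, n = 4 each; log2 1.04 ± 0.19 SE, edgeR adjusted p = 0.000293). The GFP+ libraries all lay above the GFP- libraries, as was so for 24.7% of all genes. Ly6a averaged 311.0 ± 43.5 CPM in GFP+ cells against 222.1 ± 29.8 CPM in GFP- cells (log2 0.48 ± 0.12, edgeR adjusted p = 0.00353), and the groups just missed each other. With epithelial scaling Ly6a was at 0.28 and short of the threshold, beside the all-gene median of -0.08 on that scale. Il33 averaged 35.9 ± 6.17 CPM in GFP+ cells against 27.8 ± 1.62 CPM in GFP- cells (log2 0.37 ± 0.13, edgeR adjusted p = 0.0271). The Il33 call ended under DESeq2 (0.28), library totals (0.30), epithelial scaling (0.13), no filter (0.29), a fit of the AKVPL libraries alone (0.27) and the deposited RPKM (0.24 and 0.26), and without AKVPL GFP+ replicate 2 or 3 or AKVPL GFP- replicate 1 or 2 (0.26 to 0.37).

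Il1rn was the member that fell in AKVPL GFP+ cells too, at 66.7 ± 29.5 CPM in GFP+ cells against 213.6 ± 60.5 CPM in GFP- cells (log2 -1.68 ± 0.40, edgeR adjusted p = 0.00451). All its GFP+ libraries lay below the GFP- libraries, as was so for 16.5% of all genes. Msln averaged 711.4 ± 46.1 CPM in GFP+ cells against 503.0 ± 26.3 CPM in GFP- cells without overlap (log2 0.50 ± 0.23, edgeR adjusted p = 0.0982); with the replicate number as a block it was 0.50 and past the threshold (adjusted p = 0.00336). Anxa1 was at -0.36 ± 0.15 (edgeR adjusted p = 0.0629), and at -0.37 and past the threshold with the block (adjusted p = 0.00169). Anxa1 also passed, as a fall, under DESeq2, library totals, epithelial scaling, no filter, the AKVPL libraries alone and the deposited RPKM, with values given in the last section. Ly6d was at -0.35 ± 0.16 (edgeR adjusted p = 0.088), and past the threshold under DESeq2 (-0.44), library totals (-0.42), epithelial scaling (-0.58), no filter (-0.43) and the deposited RPKM (-0.40 and -0.41). Anxa3 was at -0.02 ± 0.10 (edgeR adjusted p = 0.897), with 233.9 ± 13.2 CPM in GFP+ cells against 236.9 ± 29.6 CPM in GFP- cells.

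**Figure D2:**
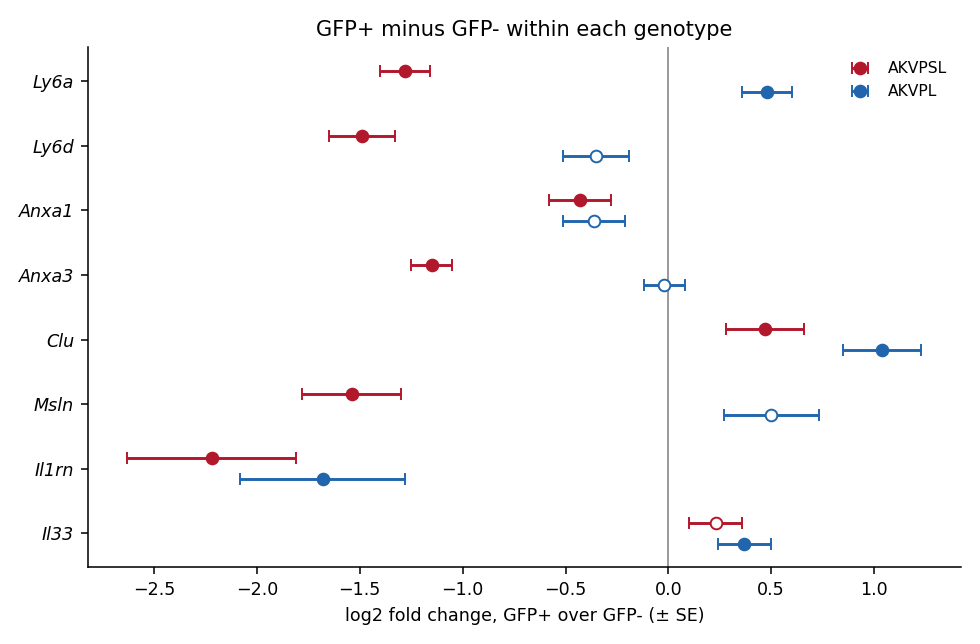
Log2 fold change of GFP+ over GFP- cells for each gene, with bars of 1 SE, in AKVPSL and AKVPL tumours; filled points passed the threshold and open points did not. Ly6a, Anxa3 and Msln lie at -1.28, -1.15 and -1.54 in AKVPSL and at 0.48, -0.02 and 0.50 in AKVPL, while Il1rn lies below 0 and Clu above 0 in both.

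Whether the sort effect differs between the genotypes was tested by the interaction term of the same fit. It passed the threshold for 4 members, all with a lower value in AKVPSL, beside 13.7% of all genes lower and 7.02% higher, 20.8% together. Msln had the largest difference, at -2.04 ± 0.33 log2 units (SE; edgeR adjusted p = 0.000724), and Ly6a followed at -1.77 ± 0.17 (edgeR adjusted p = 1.86e-06). The estimates of both had opposite signs in the 2 genotypes. For each, all GFP+ libraries lay below the GFP- libraries in AKVPSL, as for 19.6% of all genes. In AKVPL all lay above, as for 24.7%. The Msln rise in AKVPL did not pass the threshold, however (0.50 ± 0.23, edgeR adjusted p = 0.0982), and the Ly6a rise did not pass with epithelial scaling. Ly6d differed by -1.14 ± 0.22 (edgeR adjusted p = 0.00193) and Anxa3 by -1.13 ± 0.14 (edgeR adjusted p = 3.46e-05).

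The sort effect was not shown to differ for the other 4 members. Anxa1 differed by -0.07 ± 0.21, Il33 by -0.15 ± 0.18 and Il1rn by -0.54 ± 0.56 (edgeR adjusted p = 0.857, 0.587 and 0.521). Clu differed by -0.57 ± 0.26 (edgeR adjusted p = 0.13), and with the replicate block by -0.60 and past the threshold (adjusted p = 0.00792). The members' median was -0.85 against -0.10 for all genes, and of all genes past the threshold 33.8% were higher with TMM, 50% with DESeq2, 44.2% with library totals and 82.1% with epithelial scaling, where the all-gene median was 0.22.

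**Figure D3:**
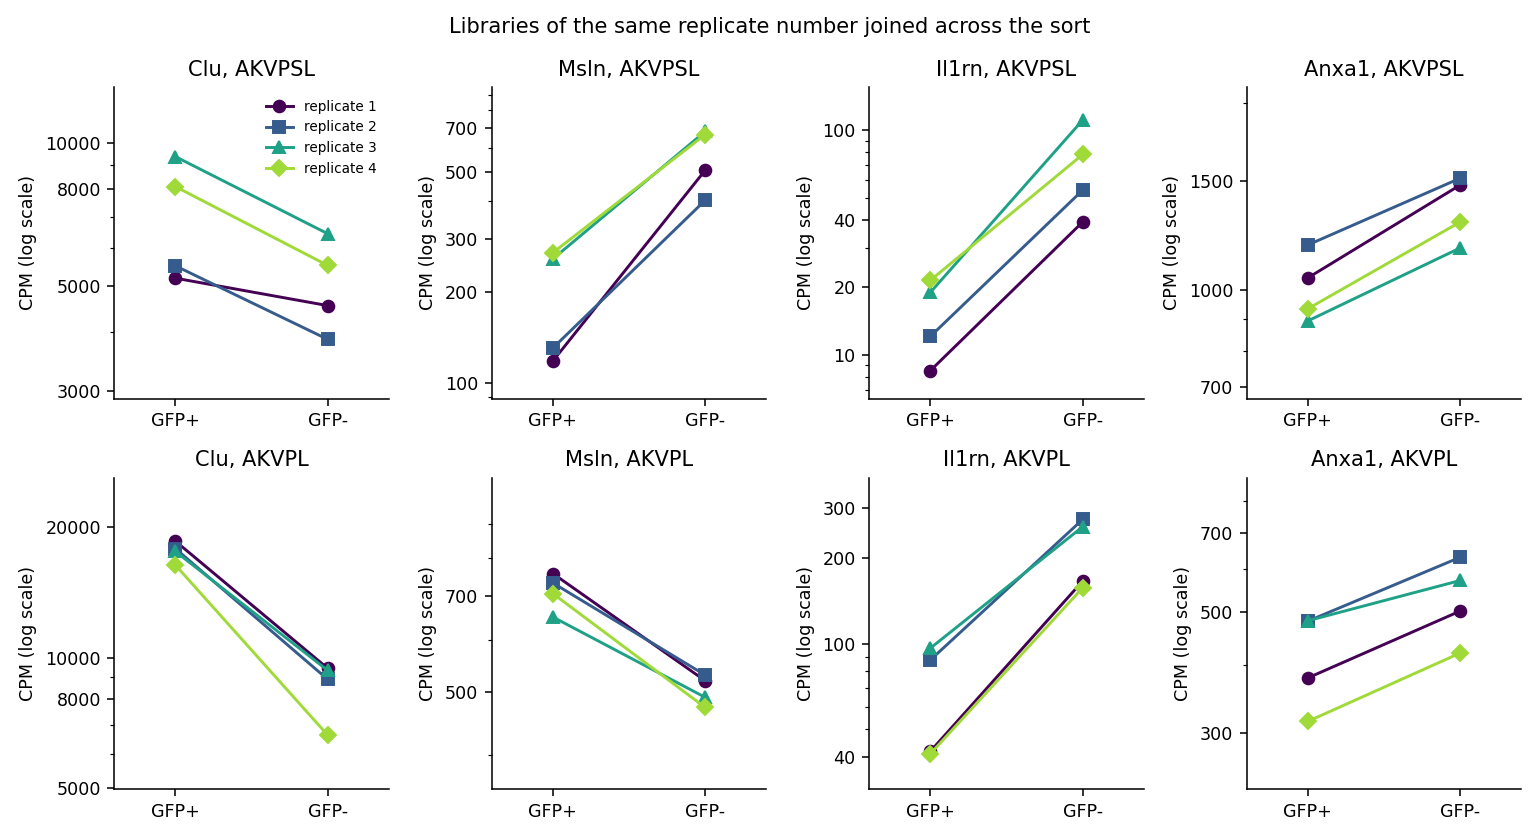
CPM of Clu, Msln, Il1rn and Anxa1 on log axes, with lines that join the GFP+ and GFP- library of the same replicate number in AKVPSL and in AKVPL. Every line for Clu has its GFP+ end above its GFP- end and every line for Il1rn and Anxa1 has it below, while the Msln lines slope opposite ways in the 2 genotypes.

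The genotypes were compared next within GFP+ cells, as AKVPSL minus AKVPL, and here every member differed. Ly6a, Anxa1, Anxa3 and Il33 rose and Ly6d, Clu, Il1rn and Msln fell, beside 24.9% of all genes rising and 28.1% falling, 53.0% together. The rises and falls held in every library. For the 4 that rose all AKVPSL libraries lay above the AKVPL libraries, as for 25.0% of all genes, and for the 4 that fell all lay below, as for 26.3%. The log2 differences of the genes that rose were 1.29 ± 0.15 for Anxa1 (edgeR adjusted p = 8.81e-07), 0.84 ± 0.10 for Anxa3 (8.71e-07), 0.56 ± 0.13 for Il33 (0.001) and 0.48 ± 0.12 for Ly6a (0.00221). Those of the genes that fell were -2.14 ± 0.41 for Il1rn (edgeR adjusted p = 0.000598), -1.87 ± 0.24 for Msln (6.28e-06), -1.36 ± 0.16 for Ly6d (9.73e-07) and -1.32 ± 0.19 for Clu (1.05e-05). The median over all 8 was -0.42, against -0.05 for all genes.

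In GFP- cells the same 4 members rose and 2 fell. Ly6a rose by 2.25 ± 0.12 log2 units, or 4.76-fold between the means (edgeR adjusted p = 5.71e-11), and Anxa3 by 1.97 ± 0.10 (2.09e-11). Anxa1 rose by 1.36 ± 0.15 (edgeR adjusted p = 4.1e-07) and Il33 by 0.71 ± 0.13 (9.93e-05), while Il1rn and Clu fell, at -1.60 ± 0.40 (0.00311) and -0.75 ± 0.19 (0.00189). Ly6d, at -0.22 ± 0.16 (edgeR adjusted p = 0.229), and Msln, at 0.17 ± 0.23 (0.55), did not pass. Thus 4 of 8 rose and 2 fell, beside 32.0% and 30.7% of all genes, 62.7% together. The libraries of these 6 did not overlap, all AKVPSL ones above for 4 and below for 2, as was so for 27.3% and 25.9% of all genes, and the members' median was 0.44 against 0 for all genes. With epithelial scaling the all-gene median was -0.28 and 32.0% of the genes past the threshold rose, against 51.1% with TMM; Ly6d was then at -0.51 and past the threshold and Msln at -0.13.

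The direction of 6 members was the same in both sorts: Ly6a, Anxa1, Anxa3 and Il33 were higher and Clu and Il1rn lower in AKVPSL than in AKVPL cells. The difference between the 2 genotype effects is the interaction term above, which passed for Ly6a, Ly6d, Anxa3 and Msln.

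**Figure D4:**
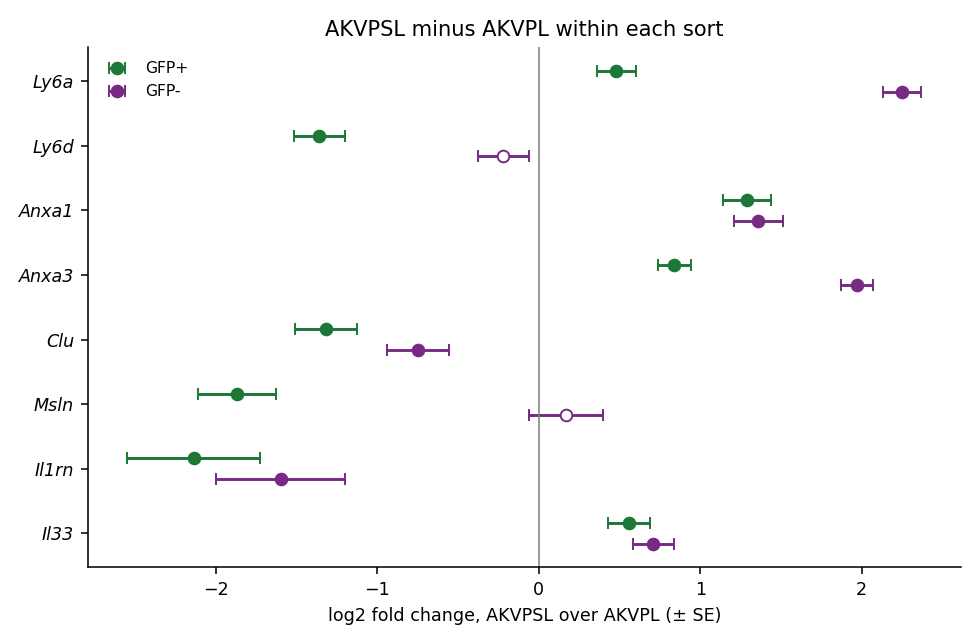
Log2 fold change of AKVPSL over AKVPL cells for each gene, with bars of 1 SE, in GFP+ and in GFP- cells; filled points passed the threshold and open points did not. Ly6a lies at 0.48 in GFP+ and 2.25 in GFP- cells and Anxa3 at 0.84 and 1.97, while Clu and Il1rn lie below 0 in both sorts.

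Markers of other cell types moved with the sort in both genotypes, and these stand beside every sort value above and below. The part of these cell types in the sort values of the gene lists below was not tested. The summed CPM of 17 leukocyte genes was 73.0 to 339.3 in AKVPSL GFP+ against 955.1 to 3781.1 in AKVPSL GFP- libraries, and 487.0 to 1307.8 in AKVPL GFP+ against 4458.5 to 7952.0 in AKVPL GFP- libraries. All 16 leukocyte genes tested fell in AKVPSL GFP+ cells and 15 of 16 in AKVPL GFP+ cells. Of the 17, only Cd3g, of T cells, was at 0 in any group (3 of the 4). Cd3e, another T cell gene, had counts in all 4 groups. Fibroblast markers fell in 13 of 13 and 11 of 13 genes, with sums of 197.2 to 1028.8 against 1393.8 to 2833.4 CPM in AKVPSL and 549.8 to 1136.8 against 4348.2 to 9340.4 CPM in AKVPL. Endothelial markers fell in 10 of 12 and 11 of 12 genes and mast cell markers in 6 of 7 in each genotype. Neutrophil markers fell in 5 of 6 and 6 of 6 genes. Of all genes tested, 24.6% fell in AKVPSL GFP+ and 16.5% in AKVPL GFP+ cells.

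Between the genotypes, 13 of 16 leukocyte genes fell in AKVPSL GFP+ and 9 of 16 in AKVPSL GFP- cells, and fibroblast genes in 2 of 13 and 10 of 13. Of all genes tested, 28.1% fell in AKVPSL GFP+ and 30.7% in AKVPSL GFP- cells. Il1rn, which macrophages and neutrophils also make, had the same order of group means as the leukocyte sum, from AKVPSL GFP+ at the bottom through AKVPL GFP+ and AKVPSL GFP- to AKVPL GFP- at the top. In AKVPSL GFP+ replicates 1 to 4 the leukocyte sum was 73.0, 137.8, 233.8 and 339.3 CPM where Il1rn was 8.52, 12.1, 19.0 and 21.5 CPM, and their part in the result was not tested. Il33, which fibroblasts and endothelial cells also make, had higher means in GFP+ cells of both genotypes, a difference that did not pass in AKVPSL (edgeR adjusted p = 0.15), while those marker sums were lower there. Ly6a, which endothelial cells, fibroblasts and lymphocytes carry too, was lower in AKVPSL GFP+ than in AKVPSL GFP- cells, as were the leukocyte, fibroblast and endothelial sums; over all groups Ly6a was highest in AKVPSL GFP- cells and those sums in AKVPL GFP- cells. The part of these cells in the Il33 and Ly6a values was not tested. Of 18 epithelial markers tested, 11 rose and 1 fell in AKVPSL against AKVPL GFP- cells, beside 32.0% and 30.7% of all genes. In AKVPSL against AKVPL GFP+ cells 6 rose and 4 fell, beside 24.9% and 28.1% of all genes. In AKVPL GFP+ cells 8 rose and none fell, beside 22.6% and 16.5%. In AKVPSL GFP+ cells 4 rose and 5 fell, beside 22.4% and 24.6%. The part of the epithelial markers in the members' values was not tested. The squamous epithelial markers, among them Krt5 and Krt14, summed to 106.6 to 211.3 CPM in AKVPSL GFP+, 142.6 to 228.4 in AKVPSL GFP-, 244.8 to 307.8 in AKVPL GFP+ and 194.5 to 303.4 in AKVPL GFP- libraries; their part in the Ly6d values was not tested.

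Other genes of the fetal and regenerative state also fell more often than they rose in AKVPSL GFP+ cells. Of 23 such genes, all tested, 15 fell and 1 rose in AKVPSL GFP+ cells (median -0.98), 7 fell and 2 rose in AKVPL GFP+ cells (median -0.17), and the difference passed for 9, all lower in AKVPSL (median -0.60). The medians over all genes were -0.01, 0.14 and -0.10 in these comparisons. Of all genes, 24.6% fell and 22.4% rose in AKVPSL GFP+ cells, and 16.5% fell and 22.6% rose in AKVPL GFP+ cells. The difference passed for 13.7% of all genes with a lower and 7.02% with a higher value in AKVPSL. In AKVPL 10 fell and 1 rose with DESeq2 or library totals. With epithelial scaling 11 fell and 1 rose in AKVPL, and the difference passed for 7 lower and 2 higher. One of the 23, Krt19, is also among the genes that set that scaling. Krt7 and Krt19, keratins of simple and ductal epithelia, fell in AKVPSL GFP+ cells, with log2 fold changes of -1.14 ± 0.09 and -0.98 ± 0.09, as did the annexin Anxa8, at -2.42 ± 0.21. Cxadr, a junction receptor, was the gene that rose (0.47 ± 0.13). In AKVPL GFP+ cells the LY6 gene Ly6e and the calcium binder S100a6 rose (0.50 ± 0.10 and 0.34 ± 0.12; the S100a6 call ended under DESeq2, library totals and epithelial scaling, at 0.24, 0.27 and 0.13), while Gja1, a gap junction protein, and the YAP target Ccn2 fell, at -2.55 ± 0.44 and -1.03 ± 0.20. S100a6, Krt19 and Krt7 had the differences with the smallest adjusted p, at -1.73 ± 0.18, -1.11 ± 0.12 and -0.97 ± 0.12.

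Between the genotypes 3 of the 23 genes rose and 6 fell in AKVPSL GFP+ cells (median -0.14, against -0.05 for all genes), no larger a share than the 24.9% and 28.1% of all genes. In AKVPSL GFP- cells 12 rose and 4 fell (median 0.45, against 0 for all genes), beside 32.0% and 30.7% of all genes. With epithelial scaling 5 rose and 6 fell in GFP+ and 9 rose and 6 fell in GFP- cells. Anxa8 fell in both, at -5.13 ± 0.22 in GFP+ and -3.07 ± 0.19 in GFP- cells. Tissue factor, F3, rose by 1.60 ± 0.20 in GFP+ cells, and S100a6, Krt7 and Ly6e rose by 1.21 ± 0.13, 0.83 ± 0.09 and 0.84 ± 0.10 in GFP- cells.

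**Figure D5:**
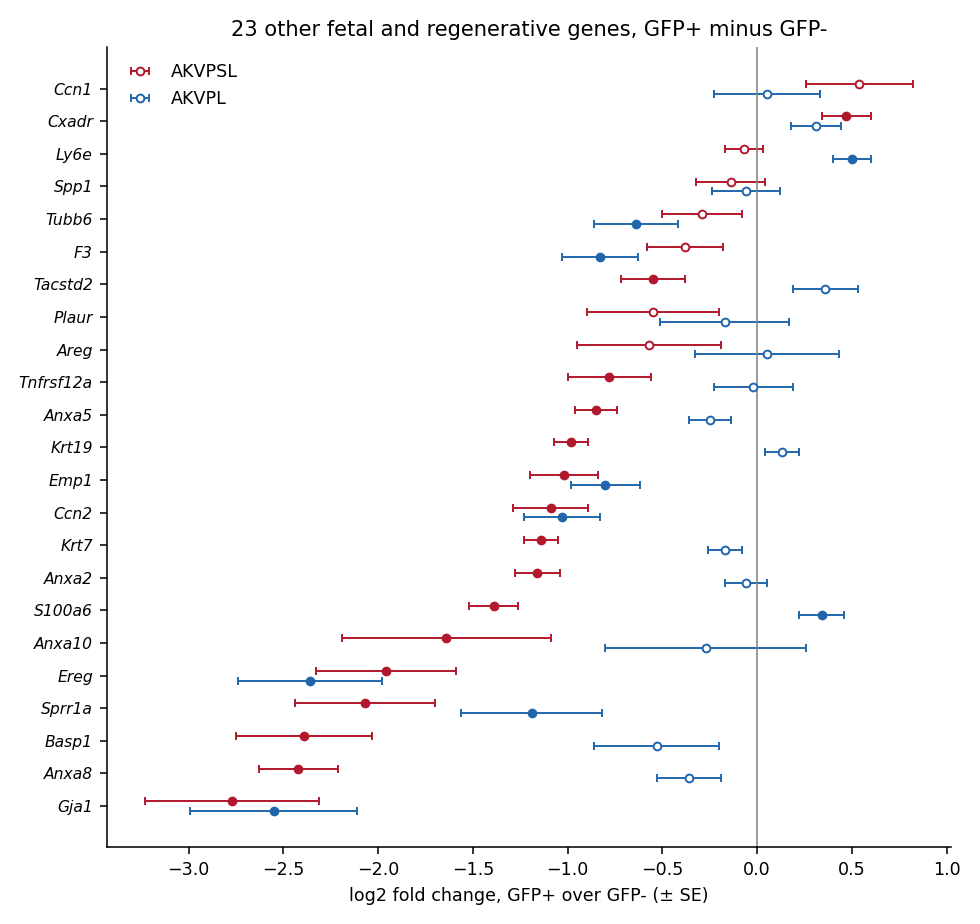
Log2 fold change of GFP+ over GFP- cells for 23 other fetal and regenerative genes in AKVPSL and AKVPL tumours; filled points passed the threshold and open points did not. In AKVPSL 15 of the 23 genes lie below 0 and past the threshold, and in AKVPL 7 do, beside 24.6% and 16.5% of all genes.

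The families of the members were read the same way. Ly6e and the annexins Anxa2, Anxa5, Anxa8 and Anxa10 are also in the fetal and regenerative list above, so the counts of these lists share genes. Of 17 other LY6 family genes, 14 were tested. In AKVPSL GFP+ cells 7 fell and none rose (median -0.87), beside 24.6% and 22.4% of all genes (median -0.01). In AKVPL GFP+ cells 5 fell and 5 rose (median 0.10), beside 16.5% and 22.6% of all genes (median 0.14). With epithelial scaling 6 fell and 3 rose in AKVPL, and the median was -0.12. Lypd3 and the prostate stem cell antigen gene Psca fell in AKVPSL GFP+ cells, with log2 fold changes of -1.92 ± 0.20 and -2.85 ± 0.36, as did Ly6c1, near Ly6a in sequence, at -0.95 ± 0.14. Lypd8, a mucosal LY6 protein that holds back bacteria in the mouse colon, rose by 1.34 ± 0.26 in AKVPL GFP+ cells, and Gpihbp1, of capillary endothelium, fell by 4.24 ± 0.61. Between the genotypes Ly6c1 moved with Ly6a: it averaged 183.0, 353.4, 24.9 and 17.0 CPM in AKVPSL GFP+, AKVPSL GFP-, AKVPL GFP+ and AKVPL GFP- cells, or 2.87 ± 0.15 log2 units higher in AKVPSL than in AKVPL GFP+ and 4.38 ± 0.16 higher in GFP- cells. Lypd8 went the opposite way, at -4.34 ± 0.31 in GFP+ and -3.66 ± 0.33 in GFP- cells. Transcripts of Ly6a and Ly6c1 share stretches of 50 bases, and the part of misplaced reads in the likeness of these genes was not tested.

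Of the 10 other annexins, 5 fell and 3 rose in AKVPSL GFP+ cells (median -0.58), beside 24.6% and 22.4% of all genes (median -0.01). In AKVPL GFP+ cells 1 fell and 2 rose (median -0.10), beside 16.5% and 22.6% of all genes (median 0.14). The balance in AKVPL turned to 5 and 0 with epithelial scaling and 4 and 0 with DESeq2. Anxa2 and Anxa7 fell in AKVPSL GFP+ cells, with log2 fold changes of -1.16 ± 0.12 and -0.88 ± 0.10, and Anxa13, an annexin of intestinal epithelium, rose by 1.95 ± 0.23. In AKVPSL against AKVPL cells, 4 rose and 3 fell in GFP+ (median 0.26), beside 24.9% and 28.1% of all genes, and 6 rose and 2 fell in GFP- cells (median 0.58), beside 32.0% and 30.7%. Anxa4 was at 1.20 ± 0.10 in GFP+ and 0.67 ± 0.10 in GFP- cells. The formyl peptide receptors, through which Anxa1 signals, were scarce: Fpr2 averaged 0.355, 1.41, 1.15 and 9.69 CPM in AKVPSL GFP+, AKVPSL GFP-, AKVPL GFP+ and AKVPL GFP- cells, and Fpr3 had no count in any library.

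Among the 8 other interleukin 1 family ligands, 4 were tested. Il1a, Il1b and Il18 fell in AKVPSL GFP+ cells, with log2 fold changes of -2.58 ± 0.32, -2.67 ± 0.57 and -0.97 ± 0.19. In AKVPL GFP+ cells Il1a and Il1b fell, at -1.76 ± 0.30 and -2.29 ± 0.55, and Il18 rose by 0.57 ± 0.18 (0.35 and short of the threshold with epithelial scaling). All 4 fell in AKVPSL against AKVPL cells of both sorts, beside 28.1% of all genes in GFP+ and 30.7% in GFP- cells. Il18 was at -2.75 ± 0.19 in GFP+ and -1.22 ± 0.18 in GFP- cells. Il1b, which Il1rn opposes at the receptor, averaged 14.9 ± 10.4 CPM in AKVPSL GFP+, 93.9 ± 52.6 in AKVPSL GFP-, 67.1 ± 29.9 in AKVPL GFP+ and 328.2 ± 69.1 in AKVPL GFP- cells. The group means of Il1rn and Il1b had the same order.

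Of 9 receptors and binding proteins of this family, 6 fell and 1 rose in each genotype's GFP+ cells. Of all genes, 24.6% fell and 22.4% rose in AKVPSL, and 16.5% fell and 22.6% rose in AKVPL. The medians of the 9 were -0.81 in AKVPSL and -0.99 in AKVPL, against -0.01 and 0.14 for all genes. With epithelial scaling 4 fell in AKVPSL. Il1rl1, the receptor of Il33, fell in GFP+ cells, at -3.98 ± 0.52 in AKVPSL and -3.83 ± 0.45 in AKVPL, and was scarce, at 0.222, 3.43, 0.832 and 11.9 CPM in AKVPSL GFP+, AKVPSL GFP-, AKVPL GFP+ and AKVPL GFP- cells. Il1r1, the signalling receptor that Il1rn blocks, was 0.83 ± 0.14 log2 units higher in AKVPSL than in AKVPL GFP+ cells. Il18r1 was higher in AKVPSL by 3.22 ± 0.38 in GFP+ and 3.72 ± 0.38 in GFP- cells. Of the clusterin receptors, Vldlr was higher in AKVPSL by 2.42 ± 0.18 and 2.02 ± 0.17, opposite to Clu, and Trem2, a myeloid receptor, fell in GFP+ cells, at -3.73 ± 0.69 in AKVPSL and -2.70 ± 0.66 in AKVPL. Muc16, the partner of Msln, stood at 0.201 to 3.47 CPM over the 16 libraries.

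The genes with the pattern most like each member were found by Pearson's r of log2 CPM over the 16 libraries among 12333 genes. These libraries fall into 4 groups, so r mainly reflects the group means and is given as a description. Ly6a was most like Tnfaip8 (r = 0.98), Gldc (0.977), Ak6 (0.974), Cdk3 (0.967) and Tfap2a (0.967). Anxa1 was most like Rheb (0.986), Anxa3 like Aprt (0.985), Clu like Celf4 (0.971), Il1rn like Nlrp3 (0.991), Il33 like Foxa1 (0.973), Msln like Paqr5 (0.952) and Ly6d like Gpr137b (0.945). Among the members, Ly6a and Anxa3 had r = 0.97, Anxa1 and Anxa3 0.90, and Ly6d and Il1rn 0.85, whereas Anxa1 and Clu had -0.85 and Il1rn and Il33 -0.79.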

How the data were processed

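RNA of cells sorted by GFP was sequenced in 16 libraries, 4 per group, grouped by the sample titles. Per the file headers, the deposited counts are of reads with a unique alignment to the gene's model, and the authors' RPKM is adjusted by a size factor. The submitters' processing notes name GSNAP and GRCm38; their versions, any gating beyond GFP and the strand setting are not stated in the sources used here. Symbols came from RefSeq (GRCm38.p6), which matched 31049 of 36528 Gene IDs (85.0%); unmatched IDs, with 1.379% to 1.88% of counts, stayed in. Depth per library, 10.88 to 41.6 M counts (M, 1e6), sets the counting precision.

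Counts were fitted with edgeR 4.0.16 in R 4.3.3: filterByExpr (18072 genes), TMM factors of 0.936 to 1.086, a mean per group, robust quasi-likelihood dispersions (12 degrees of freedom left), two-sided F tests and Benjamini-Hochberg adjustment over all genes of each of 5 contrasts, at 0.05. The SE was worked back from F and is approximate. Within groups, the chi-square per degree of freedom of all 24 pairs of libraries was 9.05 to 73.6, where sampling noise alone gives 1. None was therefore counted as the same library sequenced again. The check cannot show whether libraries came from separate tumours or animals.

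The members and gene lists were chosen with earlier results of these data known, and 1 gene of the fetal and regenerative list is not reported here. Beside the members, the text names from each list up to 3 genes past the threshold per direction and contrast with the smallest adjusted p, with their mean log2 CPM at 0 or above, and Muc16 and Fpr3, which were picked after their values were seen; for Ly6a the 5 genes and for each other member the 1 gene of highest r. No set test was run, and the lists are described by counts and medians. Shared stretches were counted in GENCODE M21 transcripts.

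To see whether replicate numbers pair the libraries, deviations from group means were correlated over 13505 genes. Same-numbered GFP+ and GFP- libraries correlated at 0.13 to 0.54 in AKVPSL and at 0.16 to 0.43 in AKVPL, all above 0.1. Libraries of unlike number correlated at -0.62 to 0.54 in AKVPSL and at -0.34 to 0.25 in AKVPL. AKVPSL GFP+ replicate 3 was closer to GFP- replicate 4 (0.54) than to GFP- replicate 3 (0.13). AKVPSL GFP+ replicate 4 was closer to GFP- replicate 3 (0.46) than to GFP- replicate 4 (0.33). Within a genotype the numbers were still taken to pair the libraries. That reading comes from the data and not from the labels, and is uncertain for AKVPSL replicates 3 and 4. Alternatives were DESeq2 1.42.0, library totals, epithelial scaling, 2 other filters, the contrast's groups alone, the replicate block, limma 3.58.1 on log2 of the deposited RPKM plus 1 or 0.1, and leaving out each library.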

Additional observations from a re-analysis of the deposited data

Results flagged for a closer look

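Anxa3 in AKVPSL GFP- replicate 3, at 1066.3 CPM, stood apart from the other 3 libraries of its group: its gap to the nearest was 0.834 of the group's range, just past Dixon's 95% critical value for 4 values. It was the only such library among 32 groups examined (8 genes in 4 groups), and chance gives about 1 in 20.

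The sort effect differed between the genotypes for 4 members by the interaction term of edgeR's fit. AKVPSL minus AKVPL, it was -1.77 for Ly6a, -1.14 for Ly6d, -1.13 for Anxa3 and -2.04 for Msln on the log2 scale.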

How the results depend on the processing

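The number of members past the threshold stayed within 1.5 times its value under every alternative run. When each library was left out in turn, it ran from 5 to 7 for the sort in AKVPSL (7 as reported), from 3 to 5 for the sort in AKVPL (4), was 8 for the genotypes in GFP+ and 6 in GFP- cells, and was 4 for the difference of the sort effects. With the replicate block, which takes the numbers to pair the libraries within a genotype, it was 7, 6 and 5 for the sort in AKVPSL, the sort in AKVPL and their difference. Beside Anxa1 and Msln in AKVPL and the Clu difference the block changed no other call. The numbers do not pair libraries across genotypes (correlations of 0.01 to 0.41 in GFP+ and -0.13 to 0.34 in GFP- cells), and a replicate block there left 8 and 6 calls. The calls that were lost or gained are given with the results: Clu and Anxa1 in AKVPSL, Ly6a, Il33, Ly6d, Anxa1 and Msln in AKVPL, and Ly6d between the genotypes in GFP- cells. In AKVPL, Ly6d was also past the threshold without AKVPL GFP- replicate 1 (-0.46) or 3 (-0.44), Anxa1 under DESeq2 (-0.46), library totals (-0.43), epithelial scaling (-0.59), no filter (-0.45), the AKVPL libraries alone and the RPKM (-0.46 each) and without AKVPL GFP+ replicate 2 or 3 or AKVPL GFP- replicate 4 (-0.46 to -0.44), and Msln with the AKVPL libraries alone (0.39). The values that changed sign were all near 0 and short of the threshold: Anxa3 in AKVPL without AKVPL GFP+ replicate 3 or 4 (0.01 each) or AKVPL GFP- replicate 1 (0) or 2 (0.05), with a range of -0.09 to 0.05 over the libraries left out, Msln between the genotypes in GFP- cells with epithelial scaling (-0.13), the Il33 difference of sort effects with epithelial scaling (0.18), and that of Anxa1 with DESeq2 (0.03), epithelial scaling (0.26), no filter (0.01), the RPKM at either pseudocount (0.03) or without AKVPL GFP+ replicate 2 or 3 (0.01 each) or AKVPL GFP- replicate 4 (0.03), with a range of -0.18 to 0.03. The cause was not tested. Ly6d, with as few as 188 counts in a library, Il33 (337) and Il1rn (344) have the widest relative counting error, and 4 libraries per group limit small differences such as those of Il33.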
